A study of Arabidopsis thaliana with 16 samples.

Results

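*WRKY22*, *WRKY53*, *STZ* and *CML38* are 4 regulators of the early responses of Arabidopsis to wounding, touch and chitin. They were chosen with earlier results of these data known, and were taken by name from the probe annotation. The brightest probe set of each was used in all 16 arrays. They are 4 of 13350 genes that the annotation pairs with a probe set, and each has 1 probe set among the 22746 that are not controls. Transcripts had been measured on ATH1 GeneChips in the course of somatic embryogenesis in culture. WT (Columbia-0) was compared with *vtc2-5*, a T-DNA insertion line in *VTC2*, which encodes GDP-L-galactose phosphorylase of the ascorbate pathway and whose loss leaves tissues short of ascorbate. The labels name the mutant only as vtc2, and the methods give the line. The series therefore rests on 1 mutant allele, and *VTC2* itself was not analysed here.

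Both genotypes were sampled at 4 stages: zygotic embryos at the bent-cotyledon stage, explants that had spent 7 d (D7I) or 14 d (D14I) with the synthetic auxin 2,4-D on induction medium, and mature somatic embryos after 14 d on hormone-free maturation medium. Zygotic embryos of both genotypes were dissected by hand, and the somatic embryos of both had passed through the culture with 2,4-D. Each of the 8 groups has 2 arrays, labelled as biological replicates, and 2 arrays per group limit the precision of every value. P values measure the spread between these samples alone. The age of the parent plants was not given in the sources used here.

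Mechanical injury, touch and chitin fragments from fungal cell walls all raise calcium in plant cells and start mitogen-activated protein kinase cascades, and a set of transcription factors and calcium sensors is transcribed within minutes. WRKY22 is a WRKY transcription factor at the end of such a cascade in flagellin and chitin signalling. WRKY53 is a WRKY factor best known for promoting leaf senescence and also takes part in defence. STZ, also called ZAT10, is a C2H2 zinc-finger repressor induced by salt, cold, drought and jasmonate. CML38 is a calmodulin-like calcium sensor whose transcript is induced by wounding and touch. Ascorbate is the main soluble antioxidant of plant cells.

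The genes lie at separate sites of the TAIR10.1 assembly. *WRKY22* (AT4G01250) spans chr4:522530-524249 and *WRKY53* (AT4G23810) spans chr4:12392370-12393982. *STZ* (AT1G27730) spans chr1:9648021-9649323 and *CML38* (AT1G76650) spans chr1:28766750-28768138. The annotated span of *WRKY53* overlaps that of its neighbour *3xHMG-box2* (chr4:12390167-12392710).

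A value is the signal of a probe set, a linear intensity, and all arrays share a 2% trimmed mean of 500. Signals do not compare between probe sets. A signal under 30 is called weak here, and folds measured from weak signals are uncertain. *WRKY22* and *STZ* were above 30 in 16 of 16 arrays, *CML38* in 15 and *WRKY53* in 6. Differences are those of mean log2 signals with their standard error, tested in 1 limma fit over the 16 arrays. A gene was called changed at an adjusted p (Benjamini-Hochberg, over all 22746 probe sets) under 0.05 if the difference also reached 2-fold.

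The median signal of an array ran from 148 to 199, and 69.2 to 78.1% of probe sets were above 30. The WT array of mature somatic embryos with replicate number 1 stood apart. Its 5 measured seed storage and late embryogenesis genes had a median signal of 33.9, against 3254 in the other WT array of that stage and 1894 and 1636 in *vtc2-5*. The 2 WT arrays of mature somatic embryos correlated at r = 0.922 over probe sets, and the replicates of the other groups at 0.952 to 0.962. The genotype and stage comparisons of the 4 genes that use that array are also given without it. Nuclear photosynthesis genes, a mark of green embryos, followed the stages: the median of 8 genes was 9992 to 10820 in zygotic embryos, 128 to 638 on induction medium, 1483 and 1879 in WT mature somatic embryos, and 3372 and 4095 in those of *vtc2-5*. Auxin response genes were high on 2,4-D, with a median over 9 genes of 608 to 1283, and 86.7 to 198 in embryos. Seed storage and late embryogenesis genes did not mark embryos, with medians of 357 to 540 in zygotic embryos and 5434 to 12806 on induction medium. The median of 2 seed coat and endosperm genes was 63.7 to 275 in zygotic embryos and 2.39 to 19.1 in the other arrays. In whole tissue, fewer cells that express a gene and less RNA per cell cannot be told apart.

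All 4 genes differed among the 8 groups, in a test that does not separate stage from genotype. A moderated F test over the 8 groups gave adjusted p (limma) of 1.03e-04 for *WRKY22*, 0.00166 for *WRKY53*, 7.73e-04 for *STZ* and 2.73e-04 for *CML38*, and 60.1% of all probe sets passed that test. Between the lowest and the highest group, the geometric mean signal changed 9.29-fold for *WRKY22*, 16.1-fold for *WRKY53*, 13.2-fold for *STZ* and 49.2-fold for *CML38*. In 3 of the genes the highest group was *vtc2-5* mature somatic embryos, and the exception was *WRKY22*.

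**Figure D1:**
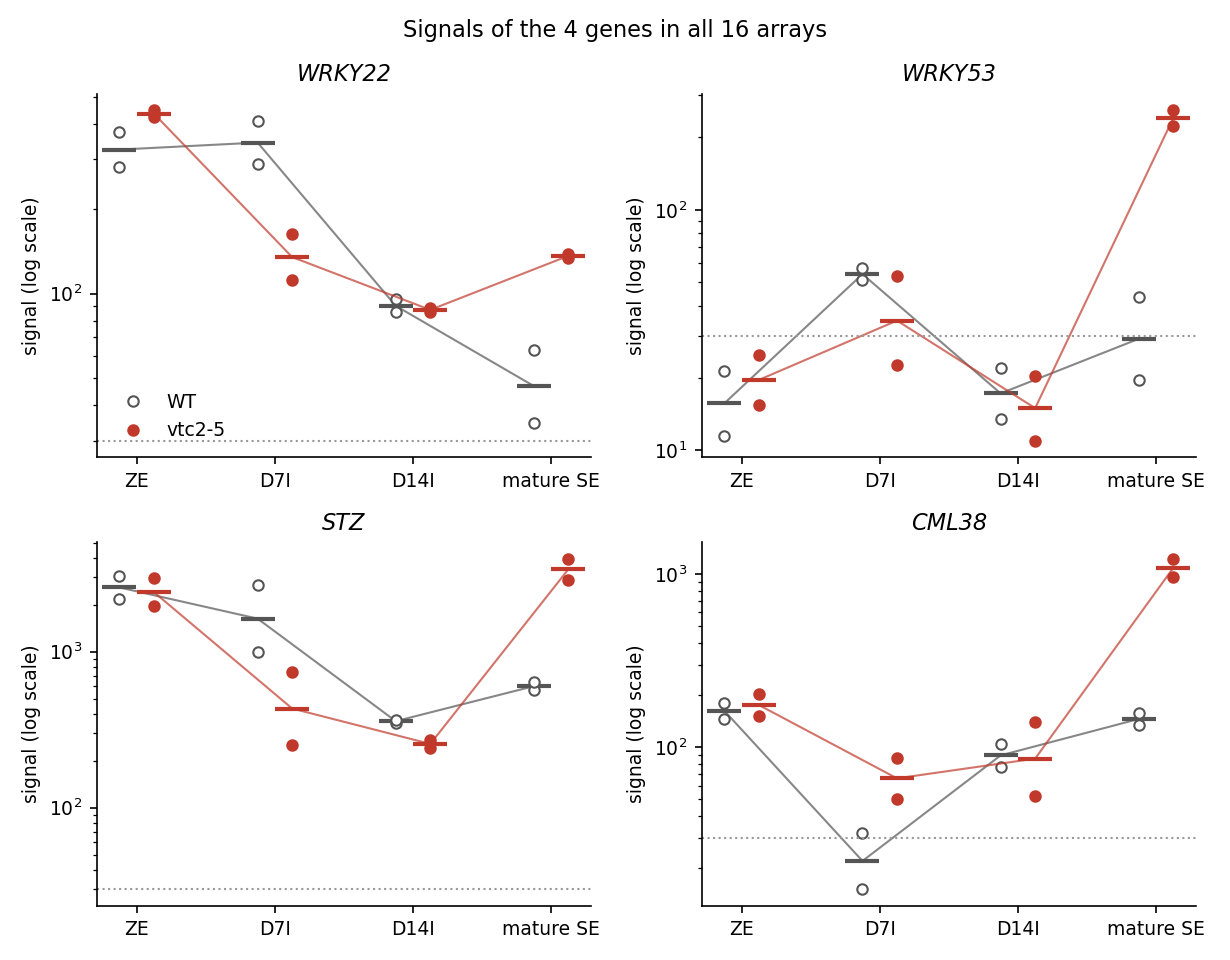
Signal of each gene on a log scale in each of the 16 arrays, by stage (ZE, zygotic embryos; SE, somatic embryos), with open circles for WT, filled circles for *vtc2-5*, short bars for the geometric mean of 2 arrays, and a dotted line at 30. Both *vtc2-5* arrays of mature somatic embryos lie above both WT arrays of that stage in every panel, and *WRKY22* and *STZ* are lower in *vtc2-5* at D7I.

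*WRKY22*, the kinase cascade target, was highest in *vtc2-5* zygotic embryos. Its signals were 282 and 375 in WT zygotic embryos and 423 and 449 in those of *vtc2-5*. At D7I the WT arrays gave 410 and 289, and the *vtc2-5* arrays 163 and 111. WT explants thus overlapped WT zygotic embryos, while both *vtc2-5* arrays lay below every array of zygotic embryos. At D14I the genotypes overlapped, with 85.7 and 95.4 in WT and 85.9 and 89.1 in *vtc2-5*. In mature somatic embryos WT gave 34.8 and 63.2, the lowest pair of the series, and *vtc2-5* gave 134 and 139. Ordered by geometric mean, the groups ran from *vtc2-5* zygotic embryos through WT D7I, WT zygotic embryos, *vtc2-5* mature somatic embryos, *vtc2-5* D7I, WT D14I and *vtc2-5* D14I to WT mature somatic embryos. The arrays of WT D7I and WT zygotic embryos overlapped, as did those of *vtc2-5* mature somatic embryos and D7I, and those of both genotypes at D14I.

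*WRKY53*, the senescence regulator, was weak in most of the series. Zygotic embryos had 21.5 and 11.5 in WT and 15.4 and 25.0 in *vtc2-5*. D7I explants had 57.1 and 51.2 in WT and 53.2 and 22.6 in *vtc2-5*, and D14I explants had 22.0 and 13.5 in WT and 10.98 and 20.4 in *vtc2-5*. WT arrays thus passed 30 at D7I, and fell under it again at D14I. WT mature somatic embryos had 19.5 and 43.4, and those of *vtc2-5* had 260 and 223. These 2 arrays lay above all 14 others, of which the highest was 57.1, and below them every group overlapped the next in the order of geometric means.

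*STZ*, the zinc-finger repressor, was bright in zygotic embryos, with 3054 and 2173 in WT and 1950 and 2958 in *vtc2-5*. D7I arrays were far apart within each genotype, with 2653 and 996 in WT and 734 and 253 in *vtc2-5*, but the genotypes did not overlap. At D14I the signal was 351 and 365 in WT and 272 and 241 in *vtc2-5*, the lowest group. In WT mature somatic embryos it was 564 and 639, and in *vtc2-5* 2884 and 3947. By geometric mean, *vtc2-5* mature somatic embryos, WT zygotic embryos, *vtc2-5* zygotic embryos and WT D7I were the 4 highest groups, each overlapping the next. WT D7I lay clear of WT mature somatic embryos, which overlapped *vtc2-5* D7I.

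*CML38*, the calcium sensor, had 146 and 180 in WT zygotic embryos and 152 and 202 in those of *vtc2-5*. At D7I the signal was 32.1 and 15.2 in WT, the lowest group, and 86.9 and 50.3 in *vtc2-5*. At D14I it was 105 and 76.9 in WT and 52.5 and 141 in *vtc2-5*. Mature somatic embryos gave 134 and 158 in WT and 958 and 1227 in *vtc2-5*. The last 2 arrays lay above the 14 others, of which the highest was 202 in a zygotic embryo sample of the same genotype. Below them, zygotic embryos of both genotypes and WT mature somatic embryos overlapped in turn, and so did D14I explants of both genotypes and *vtc2-5* D7I.

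The comparison of genotypes within a stage asks where loss of VTC2 goes with a change in these genes. In mature somatic embryos, *vtc2-5* exceeded WT in all 4. *WRKY53* was 8.28-fold higher, *CML38* 7.45-fold, *STZ* 5.62-fold and *WRKY22* 2.90-fold. Of all probe sets, 1.69% were called higher in this comparison. The mean signal of *WRKY53* was 31.5 ± 16.9 (SD, n = 2) in WT and 242 ± 26.0 (SD, n = 2) in *vtc2-5*, a log2 difference of 3.05 (SE 0.55, limma adjusted p = 0.0194). *CML38* had 146 ± 16.5 and 1093 ± 190.3, a log2 difference of 2.90 (SE 0.50, limma adjusted p = 0.0178). In both genes the *vtc2-5* arrays exceeded every other array of the series. *STZ* had 601 ± 53.4 and 3416 ± 752, a log2 difference of 2.49 (SE 0.53, limma adjusted p = 0.0315). *WRKY22* had 49.0 ± 20.1 and 136 ± 3.62, a log2 difference of 1.54 (SE 0.31, limma adjusted p = 0.0258). Among all increases, ordered by log2 difference, *WRKY53* ranked 184, *CML38* 225, *STZ* 368 and *WRKY22* 1108.

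Both *vtc2-5* arrays were above both WT arrays in 4 of 4 genes, and that held for 18.9% of all probe sets. Both were above the 14 other arrays of the series in *WRKY53* and *CML38*, that is in 2 of 4 genes, and in 5.37% of all probe sets. The median log2 difference of the 4 genes was 2.69, and that of all probe sets was -0.15. Because the 4 genes were chosen with earlier results of these data known, these contrasts with all probe sets carry no test. The probe sets called were 384 higher and 490 lower as deposited, 462 and 329 after quantile normalization, and 539 and 186 after median centring, which moved the median of all probe sets to 0.03. The 4 genes were called higher under each of these scalings.

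The calls in mature somatic embryos depended on single arrays. Without WT replicate 1, the array that stood apart, the log2 differences were 1.11 for *WRKY22*, 2.47 for *WRKY53*, 2.40 for *STZ* and 2.78 for *CML38*, with limma adjusted p of 0.0959, 0.0839, 0.109 and 0.0670. None of the 4 was then called, and 327 probe sets were called in all, against 874. Without *vtc2-5* replicate 1 the adjusted p ran from 0.0858 for *CML38* to 0.118 for *WRKY22* and *STZ*, with 74 probe sets called. Without *vtc2-5* replicate 2 it was 0.0669 for *WRKY53*, 0.0717 for *CML38* and 0.0892 for *WRKY22*, higher again for *STZ*, with 77 probe sets called higher and 123 lower. Every difference stayed positive in these fits, and without WT replicate 2 all 4 were called. Beside the 4 genes, 8 of 8 photosynthesis genes and 5 of 5 seed storage and late embryogenesis genes had a higher mean log2 signal in *vtc2-5*, with 3 and 0 called. Of all probe sets, 1.69% were called higher. Summed signals were 13655 and 17866 in WT against 32931 and 33775 in *vtc2-5* for the first list, and 184 and 23864 against 16840 and 20453 for the second. In the second list the WT array that did not stand apart thus exceeded both *vtc2-5* arrays, and the lower WT mean lay in the array that did. The part of these lists in the result was not tested. Between those WT arrays, *STZ* gave 564 and 639 and *CML38* 134 and 158, while *WRKY22* gave 34.8 and 63.2 and *WRKY53* 19.5 and 43.4.

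At D7I, 1 of the 4 genes was called. *WRKY22* was 2.55-fold lower in *vtc2-5*, and 0.717% of all probe sets were called lower. Its mean signal was 349 ± 86.2 (SD, n = 2) in WT and 137 ± 36.5 (SD, n = 2) in *vtc2-5*, a log2 difference of -1.35 (SE 0.31, limma adjusted p = 0.0469). The log2 difference of *STZ* was -1.91 (SE 0.53, limma adjusted p = 0.0810) and that of *WRKY53* -0.64 (SE 0.55, limma adjusted p = 0.564). *CML38* had a log2 difference of 1.58 (SE 0.50, limma adjusted p = 0.108), and 1.98% of all probe sets were called higher. Both *vtc2-5* arrays were below both WT arrays in 2 of 4 genes, *WRKY22* and *STZ*, and in 27.2% of all probe sets. The probe sets called were 451 higher and 163 lower, or 300 and 267 after median centring. Leaving out any 1 of the 4 arrays ended the *WRKY22* call, with adjusted p from 0.0726 without WT replicate 2 to 0.242 without WT replicate 1. With the replicate number as a block it was 0.0693.

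In zygotic embryos and at D14I, 0 of the 4 genes were called, as were 0.0352% and 0.0220% of all probe sets. At an unadjusted p under 0.05, 0 of 4 passed at either stage, as did 6.85% and 4.50% of all probe sets. The log2 differences in zygotic embryos were 0.42 for *WRKY22*, 0.32 for *WRKY53*, -0.10 for *STZ* and 0.11 for *CML38*. Their 95% intervals reached from -0.26 to 1.11 for *WRKY22* and from -0.91 to 1.56 for *WRKY53* on the log2 scale, so that a 2-fold difference was not excluded for these genes. The arrays of the genotypes overlapped except for *WRKY22*. At D14I the differences were -0.05, -0.20, -0.48 and -0.06 in the same order, with overlapping arrays except for *STZ*. The 95% intervals at D14I stayed within 2-fold for *WRKY22* (-0.73 to 0.64). They passed 2-fold for *WRKY53* (-1.44 to 1.03), *STZ* (-1.68 to 0.71) and *CML38* (-1.17 to 1.05). The mean genotype difference over the 4 stages was called for 0 of 4 genes, and for 0.0176% of all probe sets. It was 0.14 for *WRKY22*, 0.63 for *WRKY53*, -0.00 for *STZ* and 1.13 for *CML38* (limma adjusted p = 0.166), and without WT mature replicate 1 it was 0.03, 0.49 and -0.02 for the first 3 genes and a 2.15-fold difference for *CML38* (limma adjusted p = 0.106), again with 0 called.

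**Figure D2:**
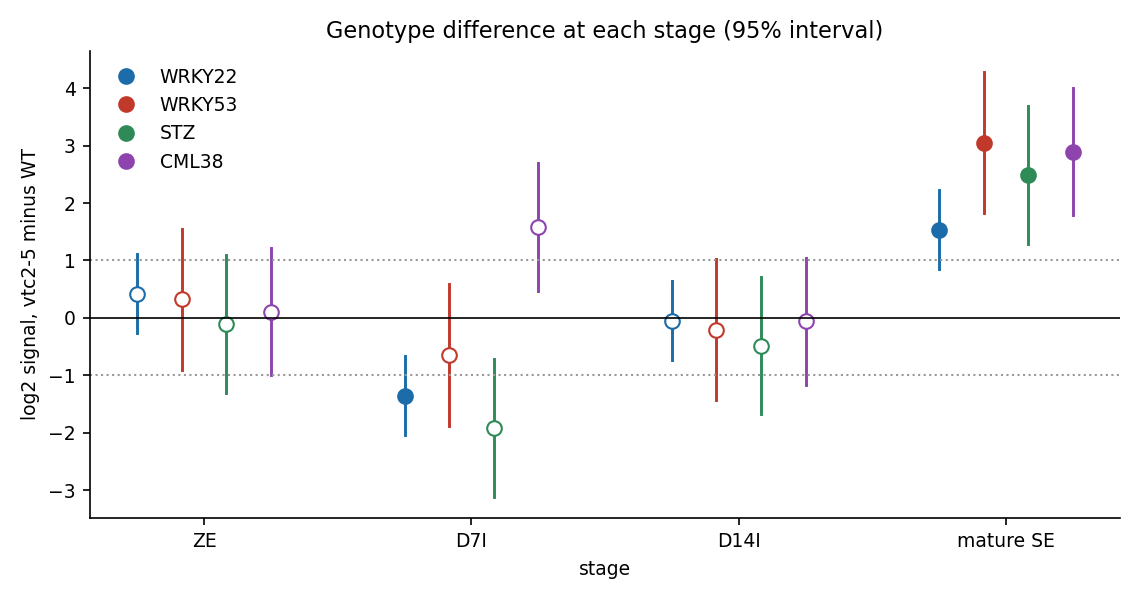
Log2 difference in signal between *vtc2-5* and WT at each stage (ZE, zygotic embryos; SE, somatic embryos) with its 95% interval from the limma fit, filled where the gene was called and open where it was not, with dotted lines at 2-fold. All 4 genes are called higher in mature SE, *WRKY22* is called lower at D7I, and no gene is called in ZE or at D14I.

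The difference between stages was tested as such. From D7I to mature somatic embryos the genotype difference rose by 4.41 on the log2 scale for *STZ* (SE 0.76, limma adjusted p = 0.0102), by 3.69 for *WRKY53* (SE 0.78, limma adjusted p = 0.0195) and by 2.89 for *WRKY22* (SE 0.43, limma adjusted p = 0.00700). For *CML38* it changed by 1.31 (SE 0.70, limma adjusted p = 0.242). So 3 of 4 genes were called, and 3.34% of all probe sets were called higher in this comparison. With an offset of 30 added before log2, *CML38* was called as well, and 1234 of 22746 probe sets were called higher. *WRKY22* and *STZ* were called without any 1 of the 8 arrays. Without WT mature replicate 1 the change was 2.46 for *WRKY22*, 3.12 for *WRKY53* and 4.31 for *STZ*, and *CML38* was again not called (limma adjusted p = 0.409). *WRKY53* was not called without WT D7I replicate 1 (adjusted p = 0.0658), WT mature replicate 1 (0.0580), *vtc2-5* D7I replicate 2 (0.0655) or *vtc2-5* mature replicate 1 (0.0622). Against zygotic embryos, the genotype difference in mature somatic embryos was larger by 1.11 for *WRKY22*, 2.73 for *WRKY53*, 2.59 for *STZ* and 2.79 for *CML38*, with 0 of 4 called (limma adjusted p = 0.0974 to 0.196) and 0.321% of all probe sets called higher. Against D14I it was larger by 1.59, 3.25, 2.98 and 2.96 in the same order, with 0 of 4 called (limma adjusted p = 0.102 to 0.136) and 0.0791% of all probe sets. At an unadjusted p under 0.05, 4 of 4 passed in each of the last comparisons, as did 20.3% of all probe sets against zygotic embryos and 17.2% against D14I. Without WT mature replicate 1 the change against zygotic embryos was 0.68 for *WRKY22*, 2.15 for *WRKY53*, 2.50 for *STZ* and 2.67 for *CML38* (limma adjusted p = 0.171 to 0.386). Against D14I it was then 1.15, 2.68, 2.88 and 2.84 in the same order (limma adjusted p = 0.177 to 0.219), with 0 of 4 called in either. Without WT mature replicate 2, *WRKY22* (adjusted p = 0.0271) and *WRKY53* (0.0396) were called against D14I.

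**Figure D3:**
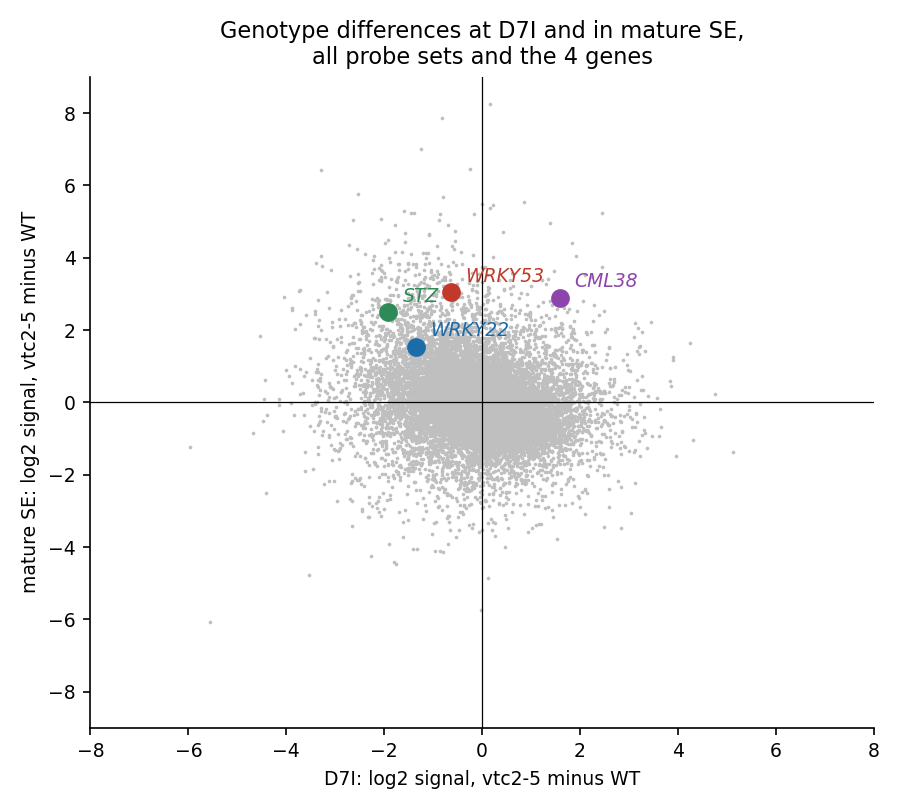
Log2 difference in signal between *vtc2-5* and WT at D7I (horizontal) against that in mature somatic embryos (vertical), with a grey point for each of the 22746 probe sets and a coloured point for each of the 4 genes. *WRKY22*, *WRKY53* and *STZ* lie left of 0 and above it, and *CML38* lies right of 0 and above it.

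Changes between stages were followed in each genotype. From zygotic embryos to D7I, *CML38* fell 7.36-fold in WT (log2 difference -2.88, SE 0.50, limma adjusted p = 0.00132) and *WRKY53* rose 3.45-fold (1.79, SE 0.55, limma adjusted p = 0.0285), while *WRKY22* (0.08) and *STZ* (-0.66) were not called. For comparison, 15.7% of all probe sets were called higher and 12.0% lower. In *vtc2-5*, the same step lowered *STZ* 5.57-fold (limma adjusted p = 0.00440), *WRKY22* 3.23-fold (limma adjusted p = 0.00155) and *CML38* 2.65-fold (limma adjusted p = 0.0464), and 12.1% of all probe sets were called lower. The log2 difference of *WRKY53* was 0.82 (limma adjusted p = 0.283). *WRKY53* in WT was not called without WT zygotic embryo replicate 2 (adjusted p = 0.171) or either WT D7I array (0.109 and 0.0847). *CML38* in *vtc2-5* was not called without either array of zygotic embryos (0.0848 and 0.190) or D7I replicate 2 (0.253), nor with the replicate number as a block (0.0626). The test of the difference between genotypes in this step called 0 of 4 genes, with adjusted p from 0.111 for *WRKY22* to 0.625 for *WRKY53*, and called 0.369% of all probe sets higher and 0.0923% lower.

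From D7I to D14I, 3 of the 4 genes changed in WT explants. *STZ* fell 4.54-fold (limma adjusted p = 0.0299), *WRKY22* fell 3.81-fold (limma adjusted p = 0.00538) and *CML38* rose 4.07-fold (limma adjusted p = 0.0298). The log2 difference of *WRKY53* was -1.65 (limma adjusted p = 0.0851). Over all probe sets, 4.15% were called higher and 3.79% lower. *WRKY22* was called without any 1 of the 4 arrays. *STZ* was not called without WT D7I replicate 1 (adjusted p = 0.177) or either D14I array (0.134 and 0.126), and *CML38* was not called without WT D7I replicate 2 (0.153) or either D14I array (0.162 and 0.0945). In *vtc2-5*, 0 of 4 genes were called in this step, and 1.51% of all probe sets were called higher and 2.39% lower. Its log2 differences were -0.62 for *WRKY22*, -1.21 for *WRKY53*, -0.75 for *STZ* and 0.38 for *CML38*.

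On maturation medium, 3 of the 4 genes rose in *vtc2-5*. From D14I to mature somatic embryos, *WRKY53* rose 16.1-fold (log2 difference 4.01, SE 0.55, limma adjusted p = 6.94e-04), *STZ* 13.2-fold (3.72, SE 0.53, limma adjusted p = 8.82e-04) and *CML38* 12.6-fold (3.66, SE 0.50, limma adjusted p = 6.49e-04). In this comparison 11.3% of all probe sets were called higher. *WRKY22* had a log2 difference of 0.64 (limma adjusted p = 0.141). These 3 calls held without any 1 of the 4 arrays and under each of the other settings tried. In WT, 0 of 4 genes were called, with log2 differences of -0.95 for *WRKY22* (limma adjusted p = 0.0566), 0.75 for *WRKY53*, 0.75 for *STZ* and 0.70 for *CML38*, and 9.96% of all probe sets were called higher and 4.76% lower. At an unadjusted p under 0.05, 1 of 4 passed in WT, as did 31.9% of all probe sets. Without WT mature replicate 1 the WT differences were -0.52 for *WRKY22* (limma adjusted p = 0.280), 1.33 for *WRKY53*, 0.84 for *STZ* and 0.81 for *CML38*, with 0 called. *WRKY22* was called lower in WT without mature replicate 2 (adjusted p = 0.0127) and after quantile normalization (0.00567) or median centring (0.0197).

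Mature somatic embryos were then set against the zygotic embryos from which the cultures began. In WT, *WRKY22* was 6.93-fold lower (limma adjusted p = 9.07e-05) and *STZ* 4.29-fold lower (limma adjusted p = 0.0118), and 10.3% of all probe sets were called lower. *WRKY53* (0.89) and *CML38* (-0.16) were not called. *STZ* was not called without WT zygotic embryo replicate 1 (adjusted p = 0.0728) or WT mature replicate 1 (0.0561). Without the latter array the log2 differences were -2.36 for *WRKY22*, which was still called (limma adjusted p = 5.56e-04), -2.01 for *STZ*, 1.47 for *WRKY53* and -0.04 for *CML38*. In *vtc2-5*, *WRKY53* was 12.3-fold higher (limma adjusted p = 6.53e-04) and *CML38* 6.19-fold higher (limma adjusted p = 0.00231), with 16.0% of all probe sets called higher. *WRKY22* fell by 1.68 on the log2 scale (limma adjusted p = 0.00189), with 12.2% called lower, and *STZ* differed by 0.49 on the log2 scale (limma adjusted p = 0.523). These 3 calls in *vtc2-5* held without any 1 of the 4 arrays.

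Over the 16 arrays, log2 signals of *WRKY22* and *STZ* correlated at r = 0.69, and at 0.82 over the 14 arrays without *vtc2-5* mature somatic embryos. *WRKY53* and *CML38* correlated at 0.50, and at -0.43 over those 14. *STZ* and *CML38* gave 0.47 and 0.18, and *WRKY53* and *STZ* gave 0.49 and 0.21. *WRKY22* correlated with *WRKY53* at 0.03 and with *CML38* at -0.10. Over the 15 arrays without WT mature replicate 1, *WRKY22* gave -0.05 with *WRKY53*, 0.72 with *STZ* and -0.11 with *CML38*, and the pairs of the other genes gave 0.48 to 0.50. The arrays share stage and genotype, so these values describe the series and carry no test. The shared rise of *WRKY53* and *CML38* lay in the 2 *vtc2-5* arrays of mature somatic embryos.

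For each gene, the probe sets of 1 gene with a mean signal of at least 100 (7615 in all) were ordered by the correlation of their log2 signal with it over the 16 arrays. Genes chosen in this way share stage and genotype patterns by selection, so their likeness carries no test. Nearest to *WRKY22* was *AT1G76470* (r = 0.953), with mean signals of 3651 in WT zygotic embryos, 131 in WT mature somatic embryos and 585 in those of *vtc2-5*. *AT4G18280* (0.927), *AT3G49300* (0.922), *AT4G29780* (0.920) and *AT1G76620* (0.918) followed. Nearest to *STZ* was *TET8* (r = 0.952), which encodes a tetraspanin, a membrane protein of exosome-like vesicles. Like *STZ*, *TET8* had a lower mean in *vtc2-5* at D7I (806 against 1915) and a higher one in mature somatic embryos (3354 against 1261). *AT2G36220* (0.939), *AT5G22580* (0.921), *AT1G27100* (0.918) and *AT4G28025* (0.909) came next.

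Nearest to *WRKY53* were *AT1G26550* (r = 0.929), *AT4G36500* (0.919), *AT4G33985* (0.897), *AT4G22310* (0.887) and *AT1G62790* (0.882). *AT4G36500* had mean signals of 216 in WT mature somatic embryos and 923 in those of *vtc2-5*, and 92.7 to 272 elsewhere. Nearest to *CML38* were *AT1G66820* (r = 0.925), *AT2G15960* (0.915), *AT3G10260* (0.915), *AT2G37750* (0.914) and *AT3G15760* (0.905). *AT2G15960* dipped at D7I as *CML38* did, to 25.7 in WT and 28.8 in *vtc2-5*, and reached 656 in *vtc2-5* mature somatic embryos against 143 in WT. No gene was among the 5 nearest of more than 1 of the 4. Without WT mature replicate 1 the correlations of these 20 genes ran from 0.885 to 0.956.

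Other genes of the same responses were read from lists, most of whose members have no probe set of their own in the annotation. Of all probe sets, 1.69% were called higher and 2.15% lower in *vtc2-5* mature somatic embryos, and the counts over these short lists stand beside those shares. Of 13 further touch genes, 3 were measured and 1 was called higher in *vtc2-5* mature somatic embryos. That gene is *AT1G76640*, known as CML39, a calmodulin-like protein and the next gene to *CML38* on the chromosome (chr1:28765254-28765866). Its signals were 1.12 and 7.78 in WT and 23.2 and 25.3 in *vtc2-5*, all weak, and at most 2.87 in the 12 arrays of other stages (log2 difference 3.03, SE 0.79, limma adjusted p = 0.0494). It was not called without WT replicate 1, where the log2 difference was 1.64 (limma adjusted p = 0.166), or without *vtc2-5* replicate 1 (0.173) or 2 (0.152). *CML37*, a close relative of *CML38*, had 11.7 and 11.5 in WT and 46.1 and 33.5 in *vtc2-5* (log2 difference 1.76, limma adjusted p = 0.312, and 1.78 without WT replicate 1). *FER*, the receptor kinase FERONIA, had a log2 difference of -0.20. The gene on the other side of *CML38*, *AT1G76660*, had mean signals of 440 in WT and 295 in *vtc2-5* (limma adjusted p = 0.334). The *WRKY53* neighbour *3xHMG-box2*, whose span overlaps it, had 1114 in WT and 670 in *vtc2-5* (limma adjusted p = 0.106).

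Of 40 further wound and jasmonate genes, 5 were measured and 1 was called higher in *vtc2-5* mature somatic embryos. This was *ORA47*, an AP2/ERF transcription factor of jasmonate biosynthesis. Its signals were 57.8 and 64.3 in WT and 442 and 286 in *vtc2-5* (log2 difference 2.54, SE 0.53, limma adjusted p = 0.0304), and 34.8 to 146 in the arrays of other stages. *ORA47* was not called without WT replicate 1 (log2 difference 2.47, limma adjusted p = 0.103) or *vtc2-5* replicate 1 (0.152) or 2 (0.0717). *JMT*, which methylates jasmonate, had 9.98 and 3.03 in WT and 22.2 and 13.2 in *vtc2-5*, all weak. Its log2 difference was 1.64 (not called, and 2.49 without WT replicate 1). The log2 difference of *PDF1.2*, a defensin, was 0.20 (-0.24 without that array), and those of the glutamate receptor-like channels *GLR3.3* and *GLR3.6* were 0.05 and -0.63. Of 27 chitin perception and signalling genes, 6 were measured and 0 were called. The ubiquitin ligase genes *PUB22*, *PUB23* and *PUB24* had log2 differences of 1.39 (limma adjusted p = 0.0730), 0.81 and 0.12, or 1.02, 1.75 and -0.14 without WT replicate 1, and the receptor-like cytoplasmic kinase gene *BIK1* 0.42. *EFR*, the receptor of bacterial elongation factor Tu, had -2.19 (limma adjusted p = 0.228), with weak signals of 3.58 and 21.1 in *vtc2-5*. At D7I, 0 of the 14 genes on these lists were called, against 1.98% of all probe sets higher and 0.717% lower.

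Among families, the 4 other WRKY genes, *WRKY6*, *WRKY20*, *WRKY42* and *WRKY47*, were not called in mature somatic embryos, with log2 differences of 0.19, -0.64, -0.42 and 0.12, or 0.25, -0.60, -1.32 and 0.03 without WT replicate 1. The 6 other genes that the annotation names CML, which leaves out *AT1G76640*, had a median log2 difference of 0.93, 5 of 6 were positive and 0 were called. The largest difference among these 6 was that of *CML23*, another calcium sensor, with 19.0 and 35.4 in WT and 87.2 and 111 in *vtc2-5* (log2 difference 1.92, limma adjusted p = 0.105, and 1.47 without WT replicate 1), and at D7I 135 and 134 in WT and 60.6 and 19.2 in *vtc2-5*. Of 26 cold and early stress genes, 4 were measured. *COR15A*, a chloroplast cold-response protein, was called higher in *vtc2-5* mature somatic embryos (mean signal 28.4 in WT and 68.7 in *vtc2-5*, limma adjusted p = 0.0465), but not without any 1 of the 4 arrays (0.0632 to 0.207), and it was 0.156 without WT replicate 1. *COR47* (-0.22), *COR15B* (0.26) and *GSTU25* (-0.15) were not called. Of 18 leaf senescence genes, 2 were measured and 0 were called in mature somatic embryos: *SAG101* had a log2 difference of 0.34 and *SAG29*, the sugar transporter SWEET15, -0.46. At D7I *SAG29* was lower in *vtc2-5* (mean signal 1041 in WT and 283 in *vtc2-5*, limma adjusted p = 0.0121), a call lost without WT replicate 1 (0.0679) or *vtc2-5* replicate 1 (0.0528) or 2 (0.0809). The annotation supplied paired none of the 12 listed zinc-finger relatives of *STZ* and no gene of the salicylate list with a probe set of its own.

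**Figure D4:**
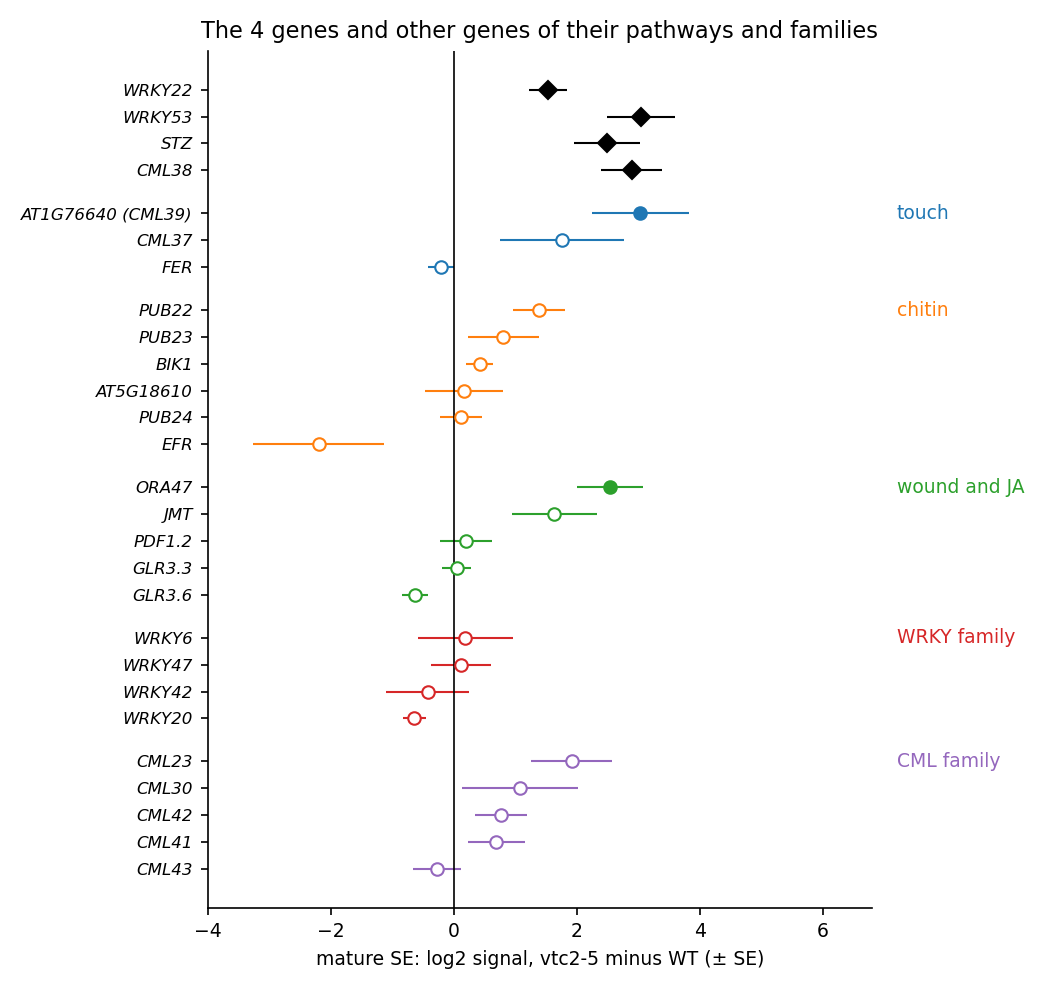
Log2 difference in signal between *vtc2-5* and WT mature somatic embryos, with its standard error, for the 4 genes (black diamonds) and for measured genes of the touch, chitin, wound and jasmonate (JA), WRKY and calmodulin-like (CML) lists, filled where called. *AT1G76640* (3.03) and *ORA47* (2.54) are the filled circles, and the other WRKY genes that the annotation names lie between -0.64 and 0.19.

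The adjusted p of the 4 genes in mature somatic embryos is shown for each way of processing the values. It stayed under 0.05 for all 4 in the filter on weak signals, both other scalings, the trended prior, the replicate block, the offset, 1 probe set per gene and the threshold on adjusted p alone. It passed 0.05 for all 4 with array weights (0.0794 for *WRKY22*, 0.0818 for *WRKY53* and *CML38*, 0.119 for *STZ*), where 93 probe sets were called. The 2 arrays of a group got equal weights there, 0.471 each in WT mature somatic embryos. That setting thus did not single out the array that stood apart. The adjusted p also passed 0.05 for all 4 in a fit of the 2 mature groups alone (0.353 to 0.360), where 0 probe sets were called.

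**Figure D5:**
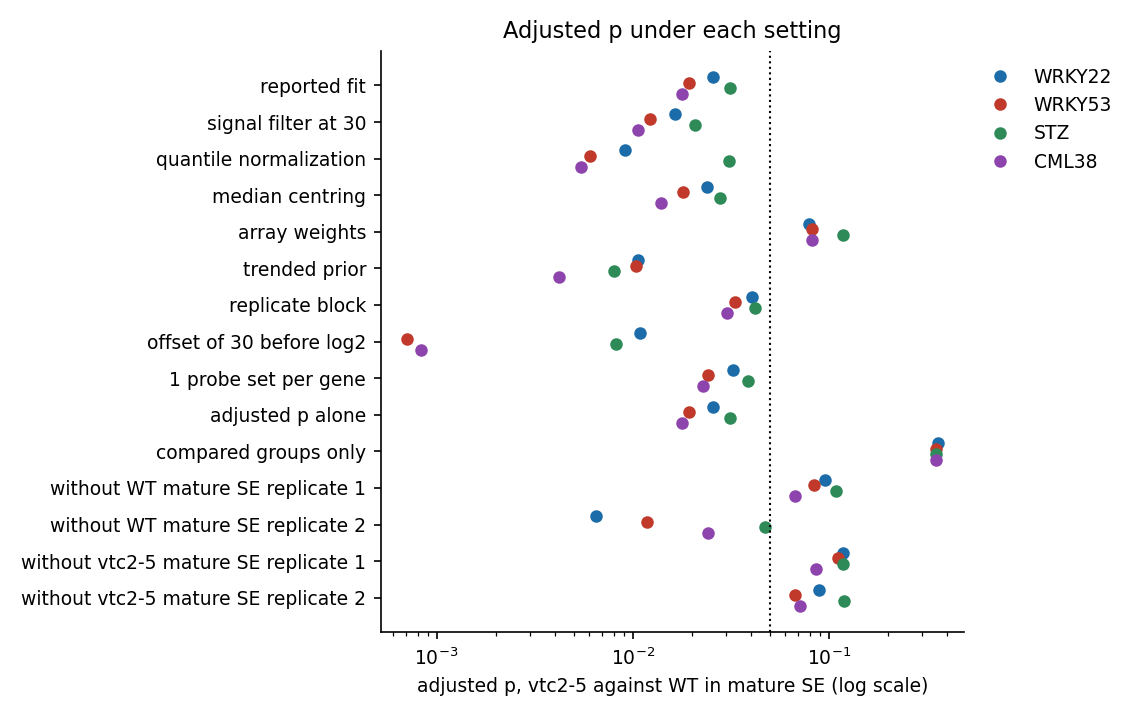
Adjusted p (log scale) of the difference between *vtc2-5* and WT mature somatic embryos (SE) for each of the 4 genes, under the reported fit and each other setting, with a dotted line at 0.05. The 4 genes lie right of the line with array weights, with the compared groups only, and without WT replicate 1 or either *vtc2-5* replicate.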

How the data were processed

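RNA of whole tissue was hybridised to 16 ATH1 GeneChips, labelled from 3 μg of total RNA per array. The values deposited by the authors are intensities on a linear scale, 1 per probe set and array, with the same 2% trimmed mean, 500, on all arrays. RMA, named in the methods, was not what produced these linear values. Scanner files were not used here, so background and summarization could not be set again.

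No offset was added before log2, and groups came from the sample labels. Limma 3.58.1 in R 4.3.3 fitted a mean for each of the 8 groups over 22746 probe sets (64 controls left out), with 8 residual and 1.62 prior degrees of freedom. The methods name multiclass SAM, which tests all groups at once. Contrasts between pairs of groups were used instead, with the methods' thresholds of adjusted p and fold. The code was tested on simulated data.

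Of all probe sets, 13513 were paired with 1 gene, 503 with several and 8730 with none by the platform annotation supplied, and 13436 of the first kind matched RefSeq positions. The 4 genes were named first, then genes of the lists (those called in a genotype comparison, or otherwise those with the highest mean signal) and the 5 nearest genes by correlation. The 4 genes and the lists were chosen with earlier results of these data known. Replicate numbers did not pair the arrays: over 28 pairs of groups, deviations of same-numbered arrays correlated at -0.14 to 0.16 (median -0.02), above 0.1 in 3. Alternatives were scaling by quantile normalization or by median centring, a filter on probe sets under 30 in every group, an offset of 30, array weights, a trend in the prior, a replicate block, a fit of the compared groups, adjusted p alone, 1 probe set per gene, and each array left out. Leaving out arrays for genes of the lists and for correlations was chosen after seeing the data.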

Additional observations from a re-analysis of the deposited data

Results flagged for a closer look

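The genotype difference changed between stages for 3 of the 4 genes, by a test of the change itself. From D7I to mature somatic embryos it rose by 2.89 on the log2 scale for *WRKY22* (limma adjusted p = 0.00700), by 3.69 for *WRKY53* (limma adjusted p = 0.0195) and by 4.41 for *STZ* (limma adjusted p = 0.0102). At D7I the difference was negative in all 3 genes, with 1 of them called, and in mature somatic embryos it was positive and called in all 3. Of all probe sets, 3.34% were called higher for the change, 0.717% lower at D7I and 1.69% higher in mature somatic embryos. The calls of genotype differences at each of these stages depended on single arrays, as did the call of the change for *WRKY53*. With the compared groups only, 0 of the 3 changes were called. At D7I the difference of *WRKY53* was -0.64 with overlapping arrays (limma adjusted p = 0.564). Groups of 2 arrays are too small for a test of single outlying arrays.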

How the results depend on the processing

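In mature somatic embryos the genotype differences of all 4 genes kept their sign in every setting. The log2 difference was the same with array weights and in a fit of the compared groups alone as in the reported fit (1.54 for *WRKY22*, 3.05 for *WRKY53*, 2.49 for *STZ*, 2.90 for *CML38*), but all 4 calls were lost in both, so that 0 genes were called. The second fit has 2 residual degrees of freedom. With 1 of the 4 arrays left out the differences ran from 1.11 to 1.97 for *WRKY22*, 2.47 to 3.63 for *WRKY53*, 2.26 to 2.72 for *STZ* and 2.72 to 3.08 for *CML38*, and 0 to 4 genes were called. An array left alone in its group is assumed to vary like the others.

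At D7I the *WRKY22* difference of -1.35 lost its call with the replicate block, with 1 probe set per gene and with the compared groups only, leaving 0 genes called, and ran from -1.63 to -1.08 with 1 array left out, again with 0 genes called. *STZ* was called as well with the trended prior (-1.91) and the offset (-1.83), making 2 genes. The replicate block also lost the fall of *CML38* from zygotic embryos to D7I in *vtc2-5*, and changed no other call of the 4 genes.

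Differences near 0 changed sign without being called. For *STZ* the mean over stages was 5.09e-04 after quantile normalization and 0.015 with the offset, and ran from -0.19 to 0.19 with 1 array left out. With 1 array left out, zygotic embryo differences ran from -0.13 to 0.78 for *WRKY53*, -0.40 to 0.20 for *STZ* and -0.093 to 0.31 for *CML38*, and D14I differences from -0.13 to 0.030 for *WRKY22*, -0.65 to 0.24 for *WRKY53* and -0.77 to 0.65 for *CML38*. From zygotic embryos to D7I in WT, *WRKY22* was -0.017 after quantile normalization and -0.045 after median centring, and ran from -0.17 to 0.34, and *STZ* from -1.37 to 0.042. From D7I to D14I in *vtc2-5*, *STZ* ran from -1.52 to 0.014 and *CML38* from -0.33 to 1.09.

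Of the genes called between stages, 1 remained from zygotic embryos to D7I in WT with array weights, the offset or the compared groups only. With the compared groups only, 0 were called from D7I to D14I in WT, 1 from zygotic embryos to D7I in *vtc2-5*, and 0 for the change of the genotype difference from D7I to mature somatic embryos. In WT, 1 was called from D14I to mature somatic embryos after quantile normalization or median centring, and 1 against zygotic embryos with array weights. For the change of the genotype difference to mature somatic embryos, 1 and 2 were called from zygotic embryos and 2 and 3 from D14I with the trended prior and the offset, and 1 from D14I after quantile normalization. From D7I, 4 were called with the offset. Of the list genes not called in mature somatic embryos, *PUB24* (-0.14) and *PDF1.2* (-0.24) changed sign without WT replicate 1. The cause of these changes was not tested. Median centring moved the counts of probe sets called higher and lower from 759 and 1824 to 1309 and 844 for the change of the genotype difference from D7I, from 2266 and 1082 to 1767 and 1925 for WT from D14I to mature somatic embryos, from 3916 and 2351 to 2720 and 3405 for WT from zygotic to mature somatic embryos, from 343 and 544 to 541 and 382 for *vtc2-5* from D7I to D14I, and from 4092 and 2760 to 3215 and 3429 for *vtc2-5* from zygotic embryos to D7I. Over all probe sets, the 874 called in mature somatic embryos became 93 with array weights, 404 with 1 probe set per gene, 1593 on adjusted p alone, 0 in the fit of the compared groups and 74 to 1924 with 1 array left out. The 614 called at D7I became 1206 with array weights, 989 with the trended prior, 398 with the replicate block, 302 with 1 probe set per gene, 0 in the fit of the compared groups and 77 to 300 with 1 array left out. The 8 called in zygotic embryos ran from 0 to 78 over all settings, and the 5 called at D14I from 0 to 18. With 2 arrays per group, single arrays set much of the precision, and *WRKY53* was above a signal of 30 in 6 of 16 arrays.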
